A study of Mus musculus with 13 samples.

Results

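The Zfp genes are the mouse zinc finger genes whose symbol is Zfp followed by a digit. Members were chosen by their level: rows of the deposited expression table with such a symbol whose second highest value among the 13 libraries was 50 normalized reads or more. By this rule 299 of 319 Zfp rows were members, in a table of 12963 genes, and 20 Zfp rows fell below the threshold. The rule used the expression level itself, so that the members are expressed in these cells is how they were chosen and not a result.

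Intratumoral T cells were compared with and without regulatory T (Treg) cells. All mice were Foxp3-EGFP-DTR animals, in which EGFP and a human receptor for diphtheria toxin (DTx) are made from the Foxp3 locus, so that the toxin kills Foxp3-expressing cells, and all carried subcutaneous B16-F10 tumors, a transplantable mouse melanoma line. Mice given PBS supplied 3 groups: Treg cells (Treg PBS, n = 3) and Foxp3-EGFP-negative conventional T (Tconv) cells that were CD4+ (CD4 PBS, n = 2) or CD8+ (CD8 PBS, n = 2). Mice given DTx supplied the other 2 groups, CD4+ (CD4 DTx, n = 3) and CD8+ Tconv cells (CD8 DTx, n = 3). The comparisons asked which transcripts set Treg cells apart, and what ablation of Treg cells changed in the remaining T cells. Per the methods, the mice of the study were young adults of both sexes and replicates were collected on separate days. The labels tie no library to an age or a day. With bulk RNA a smaller number of cells of a type cannot be told apart from less RNA per cell.

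A zinc finger is a short protein fold held by a zinc ion. In the C2H2 type, fingers repeat in tandem and each contacts a few bases of DNA, so an array reads a longer sequence. Many mouse C2H2 proteins also carry a KRAB domain, which recruits the co-repressor TRIM28 and, through it, the H3K9 methyltransferase SETDB1 to silence retroelements and imprinted loci. CCCH fingers instead bind RNA: Zfp36 (tristetraprolin) and its relatives Zfp36l1 and Zfp36l2 bind AU-rich elements of cytokine mRNAs, recruit the CCR4-NOT deadenylase and shorten the life of those mRNAs in activated T cells.

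The libraries held 15947556 to 34140486 recovered reads. Foxp3 lay between 1178 and 1896 normalized reads in Treg PBS and between 0 and 12.1 in the other 10 libraries, and the higher of Cd4 and Cd8a followed the label in every library. The CD4 DTx libraries held more Cd8a (103, 711 and 1302) than those of CD4 PBS (31.4 and 26.4), and Cd8b1 read 267, 1641 and 2360 against 529 and 589. In all 5 groups the library numbered 3 held Y-linked transcripts and no Xist, and the others held Xist with Y-linked transcripts at or near 0, so a difference of library 3 cannot be told apart from one of sex. Summed proliferation markers (10 genes, all in the table) were 734 to 1535 in CD4 PBS and 1234 to 4815 in CD8 PBS, against 15600 to 40350 in Treg PBS, 7881 to 10760 in CD4 DTx and 16110 to 33910 in CD8 DTx, and thus moved with every main comparison given here. Melanocyte markers (4 of 6 in the table) summed to 727 to 1197 in Treg PBS, 435 to 448 in CD4 PBS, 171 to 629 in CD8 PBS, 89.0 to 170 in CD4 DTx and 60.7 to 125 in CD8 DTx. Erythroid markers (3 of 5 in the table) summed to 948 to 6570 in the PBS-treated groups and 0 to 1175 in the DTx-treated groups. Myeloid markers (6 of 7 in the table) summed to 88.8 to 3525 over all libraries and B cell markers (4 of 4) to 92.6 to 1296. NK markers (2 of 2) summed to 5.89 to 16.9 in Treg PBS and 45.6 to 5111 elsewhere. Of 4 fibroblast and endothelial markers only Pecam1 was in the table, at 7092 to 7291 in CD4 PBS and 944 to 3865 elsewhere. Col1a1, Col1a2 and Cdh5 were absent from it, and Pecam1 alone does not show that such cells were present. The part of proliferation, CD8 and other cell types and sex in the differences was not tested.

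Read from the longest open reading frames of their GENCODE M21 transcripts, 178 members coded for C2H2 fingers with a KRAB domain and 111 for C2H2 fingers without one. The CCCH class held 3 members, Zfp36, Zfp36l1 and Zfp36l2. No finger was found in 4 members and 3 could not be matched to a protein. KRAB members had a median of 12 C2H2 fingers and C2H2 members without KRAB a median of 7. Of the 299 members, 163 lay directly beside another Zfp gene. These neighbours were mostly of the KRAB class, with 133 of 178 KRAB members beside another Zfp gene against 30 of 111 C2H2 members without KRAB. Chromosomes 7, 17 and 13 carried 77, 36 and 29 members.

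The promoters of 5 members are shown because the results below turn on them: Zfp2, Zfp281 and Zfp869 had lower levels in each of the 3 main comparisons, Zfp52 was called higher in Treg PBS than in CD4 PBS without each library in turn, and Zfp317 had the smallest range over the 13 libraries among the 124 members with a mean of at least 500. The sequences are RefSeq promoter windows of mouse build GRCm38.p6, from 250 bases before to 20 bases after the annotated start, read along the gene. Capitals mark matches to a CCAAT box (by those letters), a GC box (GGGCGG), an NRF1 site (GCGC, any base, then TGCGC), an ETS site (CCGGAAG), a cyclic AMP response element (TGACGTCA), an E-box (CACGTG) or a Staf site (ACTACA, any 2 bases, then TCCC), the letters bound by ZNF143/Zfp143, each searched on both strands.
Zfp2 (chr11:50916157-50916426, minus strand): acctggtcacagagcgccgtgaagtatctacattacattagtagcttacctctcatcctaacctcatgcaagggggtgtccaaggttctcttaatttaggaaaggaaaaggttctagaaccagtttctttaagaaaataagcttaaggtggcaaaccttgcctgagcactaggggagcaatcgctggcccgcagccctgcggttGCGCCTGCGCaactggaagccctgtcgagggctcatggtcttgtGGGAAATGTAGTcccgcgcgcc
Zfp281 (chr1:136624651-136624920, plus strand): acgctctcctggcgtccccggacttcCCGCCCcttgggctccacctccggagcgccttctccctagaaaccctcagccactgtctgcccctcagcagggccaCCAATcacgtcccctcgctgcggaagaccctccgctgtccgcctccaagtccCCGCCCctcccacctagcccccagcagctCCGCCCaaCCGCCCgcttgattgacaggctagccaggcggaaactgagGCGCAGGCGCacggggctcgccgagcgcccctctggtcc
Zfp869 (chr8:69716883-69717152, minus strand): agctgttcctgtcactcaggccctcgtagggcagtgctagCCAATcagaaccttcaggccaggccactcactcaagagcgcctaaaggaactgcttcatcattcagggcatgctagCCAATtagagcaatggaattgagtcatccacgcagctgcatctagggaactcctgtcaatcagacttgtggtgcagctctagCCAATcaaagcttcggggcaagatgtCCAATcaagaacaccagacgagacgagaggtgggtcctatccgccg
Zfp52 (chr17:21535289-21535558, plus strand): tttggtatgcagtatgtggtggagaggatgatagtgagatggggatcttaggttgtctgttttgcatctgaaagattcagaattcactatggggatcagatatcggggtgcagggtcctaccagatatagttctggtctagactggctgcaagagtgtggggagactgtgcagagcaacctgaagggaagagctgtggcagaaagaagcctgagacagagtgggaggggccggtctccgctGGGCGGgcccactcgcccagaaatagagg
Zfp317 (chr9:19621841-19622110, plus strand): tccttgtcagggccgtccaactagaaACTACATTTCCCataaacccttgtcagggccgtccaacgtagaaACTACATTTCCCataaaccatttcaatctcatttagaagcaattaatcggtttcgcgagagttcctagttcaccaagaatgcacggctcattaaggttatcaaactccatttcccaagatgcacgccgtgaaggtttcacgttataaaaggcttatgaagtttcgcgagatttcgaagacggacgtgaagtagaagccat

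These windows had little in common. Zfp2 held 1 NRF1 site and, from 2 bases before the start, 1 Staf site on the reverse strand. Zfp281, itself a factor that binds GC-rich DNA, held 4 GC boxes, 1 CCAAT box and 1 NRF1 site and 22 CpG. Zfp869 held 4 CCAAT boxes, a number reached or passed by 1.025% of 27025 promoters. Zfp52 held 1 GC box and 5 CpG, and Zfp317 held 2 Staf sites. None of the letters was shared by the 3 members that were lower in every main comparison.

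The Staf site was frequent among the members. It was searched because of its match in Zfp2, after the values were known. Of 253 members with a promoter window, 45 (17.8%) held at least 1 Staf site, against 1.92% of all 27025 promoters and 4.395% of the 9578 promoters of genes in the expression table. It was found in 37 of 157 KRAB members (23.6%) and in 8 of 89 C2H2 members without KRAB (8.99%). Of the 47 sites, 38 began within 100 bases before the start, 35 lay on the reverse strand, and 27 had the letters ACTACATTTCCC. For comparison, GC boxes were found in 43.5% of member promoters, 34.4% of all promoters and 60.3% of those of genes in the table, CCAAT boxes in 47.8%, 35.9% and 38.1%, and ETS sites in 20.2%, 8.3% and 16.8%. These matches are letters in a window and not measured binding. Zfp143, the member whose human counterpart reads the Staf site, varied between 1479 and 2839 normalized reads over the 13 libraries and was not called in any of the 3 main comparisons. Fold changes were alike with and without the site: the median log2 fold change of Treg PBS against CD4 PBS was -0.27 for the 45 members with it and -0.22 for the 208 without it, and that of CD4 DTx against CD4 PBS was -0.34 and -0.36.

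Zfp transcripts made up about 1% of the normalized reads, with the highest shares in Tconv cells of mice that kept their Treg cells. The members' summed share was 1.10% and 1.20% in the 2 CD4 PBS libraries and 0.942% and 1.05% in the 2 CD8 PBS libraries. In Treg PBS it was 0.688%, 0.747% and 0.95%. After ablation it was 0.715%, 0.752% and 0.868% in CD4 DTx and 0.639%, 0.570% and 0.846% in CD8 DTx. The CD4 PBS libraries thus lay above all Treg PBS and CD4 DTx libraries, and the CD8 PBS libraries above all CD8 DTx libraries. A few abundant members carried part of this. Without Zfp36, Zfp36l1, Zfp36l2 and Zfp488, chosen for removal after their values were seen, the shares were 0.934% to 0.951% in CD4 PBS, 0.835% to 0.839% in CD8 PBS, 0.670% to 0.820% in Treg PBS, 0.686% to 0.764% in CD4 DTx and 0.549% to 0.762% in CD8 DTx, and the groups that had been apart still did not overlap. In every group the library numbered 3 had the highest share of all members.

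**Figure D1:**
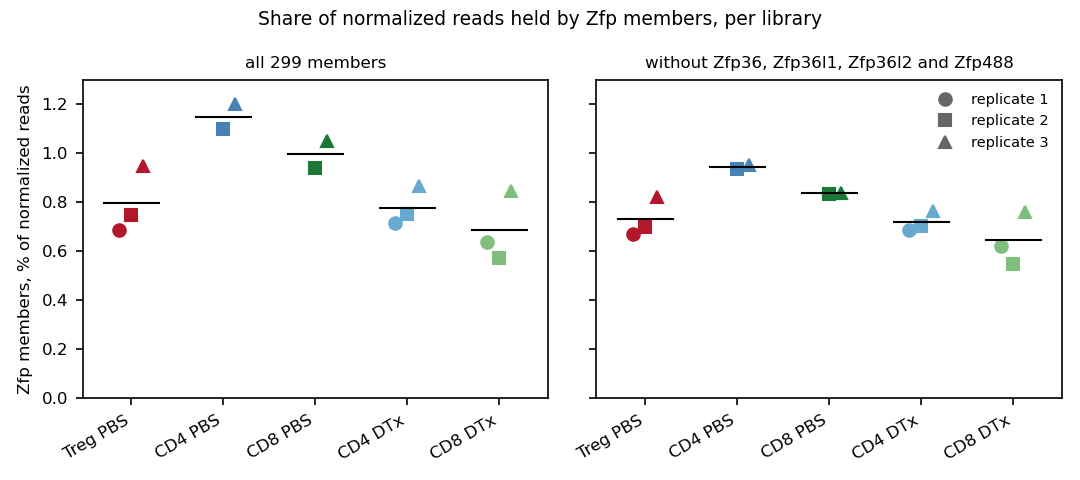
Summed Zfp members as a percentage of normalized reads (y axis) in each of the 13 libraries, by group (x axis). Points are libraries, marker shapes their replicate numbers and bars group means. Both panels place CD4 PBS highest (1.10% and 1.20% for all 299 members), and the library numbered 3 is the highest of its group in the left panel.

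Most members were present in every library. Values were above 0 in all 13 libraries for 269 members and at least 50 in all 13 for 217. The first CD4 DTx library held 22 members at 0, and the other 12 libraries 2 to 10. Just inside the threshold, by their second highest value, were Zfp316 (54.2), Zfp629 (55.5) and Zfp811 (56.0), and just outside it Zfp345 (48.7), Zfp534 (46.2) and Zfp989 (44.0). In 6 members 50 reads were reached in 1 group only: Zfp518b, Zfp174 and Zfp820 in Treg PBS, Zfp811 in CD4 PBS, Zfp316 in CD4 DTx and Zfp473 in CD8 DTx. Such members had to differ between groups to enter, so counts over all members are given as description.

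Levels were compared with limma on log2(normalized read + 1), fitted over the 12667 genes that reached 10 normalized reads in 2 or more libraries; all 299 members passed, and a member was called at a Benjamini-Hochberg adjusted p under 0.05 over all genes tested. Fold changes are on this scale and understate the change of low genes. In Treg PBS against CD4 PBS, 24 members were called, 8 higher and 16 lower, which is 8.03% of members beside 20.4% of all genes tested. By direction, 2.68% of members were higher beside 13.5% of all genes, and 5.35% were lower beside 6.91%. In CD4 DTx against CD4 PBS, 12 members were called, 3 higher and 9 lower (4.01%, beside 12.7% of all genes, 8.64% higher and 4.08% lower). In CD8 DTx against CD8 PBS, 8 members were called, 1 higher and 7 lower (2.68%, beside 10.9% of all genes, 7.4% higher and 3.47% lower). Members were thus called at a lower rate than all genes tested in each comparison, and more of the called members were lower than higher, whereas among all genes more were higher. With a change over 4-fold required as well, 8, 6 and 4 members were called, beside 10.2%, 6.85% and 5.46% of all genes.

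**Figure D2:**
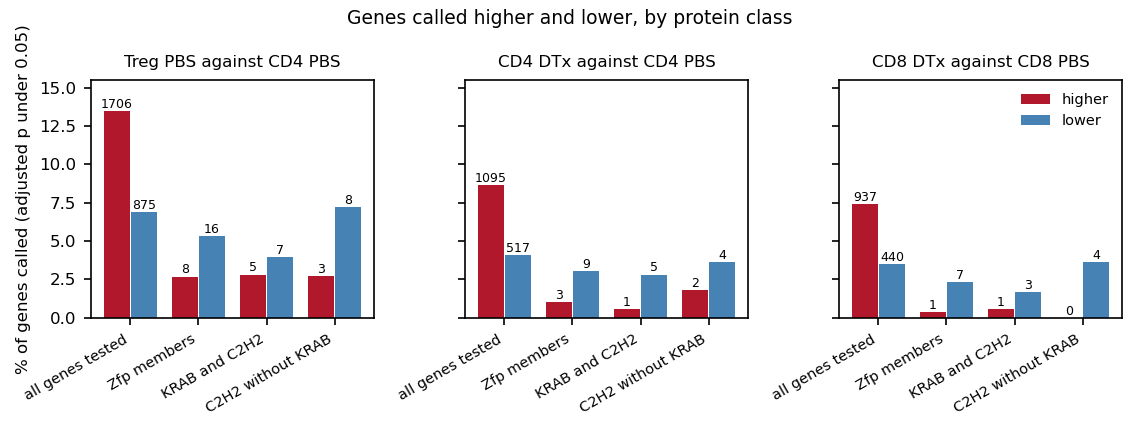
Percentage of genes called higher (red) and lower (blue) at an adjusted p under 0.05 (y axis) for all genes tested, Zfp members and the KRAB and other C2H2 classes (x axis), with the number of genes over each bar, in the 3 main comparisons. For all genes the red bar is the taller (1706 against 875 in Treg PBS against CD4 PBS), for the members the blue one (8 against 16).

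The median shift of the members was small and downward, but not all members shared it. The median log2 fold change of the members was -0.25 in Treg PBS against CD4 PBS, -0.34 in CD4 DTx against CD4 PBS and -0.23 in CD8 DTx against CD8 PBS, beside 0.01, -0.04 and -0.03 for all genes tested. Values below 0 were found for 62.9%, 70.2% and 64.5% of members, beside 48.9%, 52.0% and 51.2% of all genes. The first pair of these comparisons share the CD4 PBS libraries and are not independent. C2H2 members without KRAB had medians of -0.34, -0.44 and -0.37 and KRAB members medians of -0.13, -0.29 and -0.20. Zinc finger families with other names were also below 0 in median: 34 Zbtb genes had -0.48, -0.14 and -0.13, 16 Zscan and Zkscan genes -0.21, -0.61 and -0.69, and 12 Klf genes -1.07, -0.56 and -0.96. Groups did not overlap in 136 members in Treg PBS against CD4 PBS (45.5%, beside 56.7% of all genes), of which 94 were lower in Treg cells. They did not overlap in 115 members in CD4 DTx against CD4 PBS (beside 46.3% of all genes), 88 of them lower after ablation, and in 124 in CD8 DTx against CD8 PBS (beside 43.6%), 87 of them lower. The shares of all genes are for either direction, so the counts of lower members are given as a description only.

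**Figure D3:**
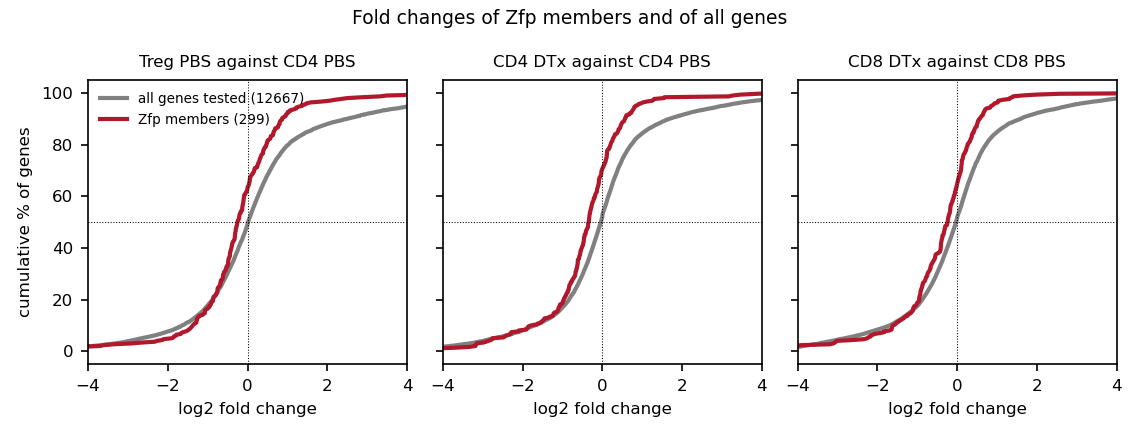
Cumulative percentage of genes (y axis) by log2 fold change (x axis) for the 299 Zfp members (red) and all 12667 genes tested (grey) in the 3 main comparisons. The red curve crosses 50% left of the grey one in each panel, at -0.25, -0.34 and -0.23, and lies above the grey one at 0.

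The CCCH members, which shorten the life of cytokine mRNAs, had 3 different patterns. Zfp36l2 read 16410 and 15828 in CD4 PBS libraries, 13280 and 14441 in CD8 PBS, 1362, 5710 and 6379 in Treg PBS, 5111, 8575 and 14582 in CD4 DTx, 3408, 4388 and 11691 in CD8 DTx. Treg cells lay below all Tconv cells of PBS-treated mice, and the DTx groups spread from near the PBS level downward. It fell in Treg PBS against CD4 PBS (log2 fold change -2.13, SE 0.66, adjusted p = 0.038). The call was lost without any 1 of 6 libraries, Treg PBS replicate 1, CD4 PBS replicates 2 and 3, CD8 PBS replicates 2 and 3, CD4 DTx replicate 2 (adjusted p = 0.052 to 0.16).

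Zfp36l1 read 1468, 1863 and 2364 in Treg PBS libraries, 655 and 1815 in CD4 PBS, 638 and 1041 in CD8 PBS, 584, 362 and 524 in CD4 DTx, 374, 399 and 421 in CD8 DTx. All DTx libraries lay below all libraries of PBS-treated mice, and all Treg libraries above all DTx libraries. Against Treg PBS it fell in CD4 DTx (log2 fold change -1.95, SE 0.36, adjusted p = 0.0061) and in CD8 DTx (-2.23, SE 0.36, adjusted p = 0.0021), and both calls were kept without each library in turn.

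Zfp36 read 1445, 2257 and 20660 in Treg PBS libraries, 6609 and 32440 in CD4 PBS, 3531 and 25182 in CD8 PBS, 1406, 1802 and 2486 in CD4 DTx, 876, 1112 and 1112 in CD8 DTx. In PBS-treated mice the library numbered 3 stood far above the others of its group, and in DTx-treated mice it did not. The differences did not pass the test against this spread: the log2 fold change was -2.99 in CD4 DTx against CD4 PBS (adjusted p = 0.085) and -3.20 in CD8 DTx against CD8 PBS (adjusted p = 0.070).

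Of 9 cytokine and early response transcripts with AU-rich elements that Zfp36 proteins are known to bind, 5 rose in CD4 DTx against CD4 PBS and 3 in CD8 DTx against CD8 PBS, and none was called lower, beside 8.64% and 7.4% of all genes called higher. The largest log2 fold changes were those of Csf2 (5.82), Ccl4 (5.69) and Ccl3 (3.17) in CD4 cells, and of Ccl4 (3.47), Ccl3 (3.16) and Ifng (2.62) in CD8 cells. In Treg PBS against CD4 PBS 3 rose, Il10 (9.48), Ccl4 (6.81) and Ccl3 (4.89), beside 13.5% of all genes. The median log2 fold changes of the 9 were 3.17, 1.68 and 0.53, beside -0.04, -0.03 and 0.01 for all genes. Of 23 CCR4-NOT and decapping genes, through which the CCCH proteins act, 1 fell in Treg PBS against CD4 PBS (Btg2, log2 fold change -1.79, adjusted p = 0.019), none was called by limma in CD4 DTx against CD4 PBS, where 2 had an unadjusted p under 0.05, and 1 rose in CD8 DTx against CD8 PBS (Dcp2, 1.35, adjusted p = 0.048). Of all genes, 20.4%, 12.7% and 10.9% were called in these comparisons, so this list was called at a lower rate.

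The other 7 RNA-linked members were not called in the main comparisons. Zfp207 (BuGZ), which helps chromosomes align on the spindle, read 11058, 8423 and 8669 in Treg PBS and 4654 and 5015 in CD8 PBS. It rose in that comparison (log2 fold change 0.95, SE 0.31, adjusted p = 0.049), a call lost without any 1 of 9 libraries, Treg PBS replicates 1, 2 and 3, CD4 PBS replicates 2 and 3, CD8 PBS replicates 2 and 3, CD4 DTx replicate 2, CD8 DTx replicate 2 (adjusted p = 0.060 to 0.20). In CD8 DTx it read 12446, 10920 and 6913, which did not pass against CD8 PBS (1.02, adjusted p = 0.052). Zfp598, the ubiquitin ligase that marks collided ribosomes, read 450 and 398 in CD4 PBS and 193, 207 and 313 in Treg PBS (adjusted p = 0.20). Zfp622, a factor of ribosome assembly, and Zfp830, a splicing factor, had log2 fold changes between -0.30 and 0.24 in the 3 main comparisons. The remaining members of this list were Zfp106, Zfp326 and Zfp346.

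**Figure D4:**
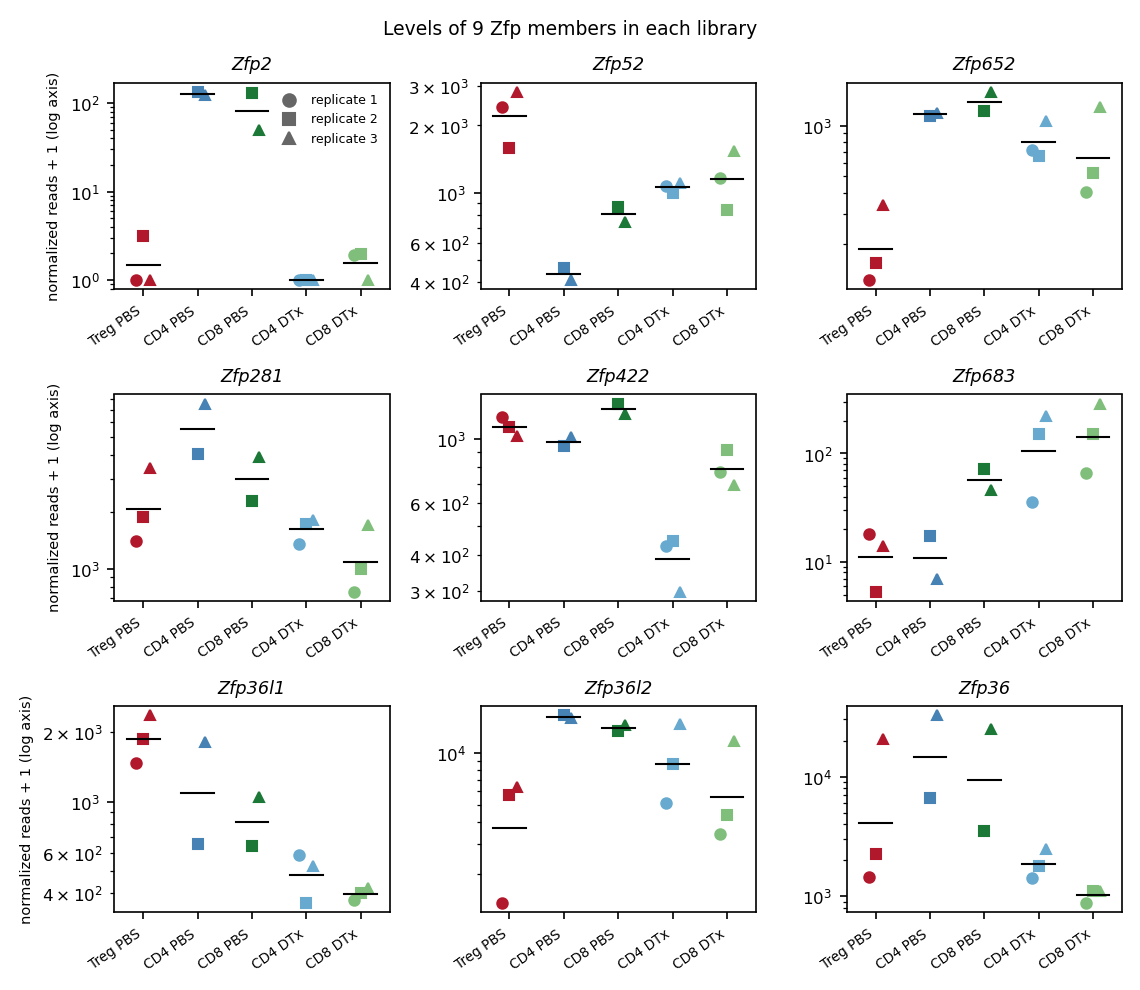
Normalized reads plus 1 (y axis, log scale) of 9 Zfp members in each library, by group (x axis); marker shapes give replicate numbers and bars the mean of log2 values. Zfp2 is near 0 outside CD4 PBS and CD8 PBS, Zfp52 is highest and Zfp652 lowest in Treg PBS, Zfp422 is lowest in CD4 DTx, and Zfp36 splits by replicate number in the PBS groups.

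Among 8 members linked to T cells, Zfp652 and Zfp683 carried the calls of the main comparisons. Zfp652, a C2H2 repressor with 7 fingers, read 121, 154 and 339 in Treg PBS libraries, 1138 and 1190 in CD4 PBS, 1217 and 1569 in CD8 PBS, 715, 659 and 1067 in CD4 DTx, 402, 521 and 1279 in CD8 DTx. Every Treg library lay below every other library. It fell in Treg PBS against CD4 PBS (log2 fold change -2.65, SE 0.50, adjusted p = 0.0030), a call kept without each library in turn. Against Treg PBS it was higher in CD4 DTx (2.10, SE 0.45, adjusted p = 0.014) and CD8 DTx (1.80, SE 0.45, adjusted p = 0.027). The first of these calls was lost without any 1 of 3 libraries, Treg PBS replicates 1 and 2, CD4 DTx replicate 3 (adjusted p = 0.058 to 0.060), and the second was lost without any 1 of 4 libraries, Treg PBS replicates 1 and 2, CD8 DTx replicates 2 and 3 (adjusted p = 0.053 to 0.10). After ablation its log2 fold changes were -0.55 in CD4 cells (adjusted p = 0.52) and -1.10 in CD8 cells (adjusted p = 0.19).

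Zfp683 codes for Hobit, a factor of tissue-resident and effector lymphocytes. It read 16.9, 4.33 and 12.9 in Treg PBS libraries, 16.4 and 5.94 in CD4 PBS, 70.5 and 45.3 in CD8 PBS, 34.6, 150 and 220 in CD4 DTx, 65.6, 151 and 285 in CD8 DTx. It was low in Treg cells and in CD4 cells of PBS-treated mice, and all CD4 DTx libraries lay above them. It rose in CD4 DTx against CD4 PBS (log2 fold change 3.27, SE 0.94, adjusted p = 0.040). The call was lost without any 1 of 8 libraries, Treg PBS replicate 3, CD4 PBS replicates 2 and 3, CD8 PBS replicates 2 and 3, CD4 DTx replicates 2 and 3, CD8 DTx replicate 2 (adjusted p = 0.051 to 0.29). In the 3 CD4 DTx libraries Zfp683 had the order of Cd8a (103, 711 and 1302), which was 31.4 and 26.4 in CD4 PBS, and the part of CD8 cells in this difference was not tested. In CD8 DTx against CD8 PBS, whose libraries overlapped, the log2 fold change was 1.31 (adjusted p = 0.39). Zfp318 read 323, 283 and 463 in Treg PBS and 820 and 830 in CD8 PBS and was lower in Treg cells (log2 fold change -1.24, SE 0.32, adjusted p = 0.017), a call lost without any 1 of 4 libraries, Treg PBS replicates 1 and 2, CD8 PBS replicates 2 and 3 (adjusted p = 0.051 to 0.13). Zfp335, which developing T cells need, read 1326 and 1180 in CD4 PBS and 412, 451 and 731 in Treg PBS (adjusted p = 0.19). Zfp365, in which no finger was found, read 258 and 199 in CD4 PBS and 0, 41.9 and 40.8 in CD4 DTx (adjusted p = 0.12). Zfp35, Zfp91 and Zfp831 had log2 fold changes between -0.91 and 0.04 in the main comparisons, none of them called.

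Of 13 factors of promoters and chromatin, 3 fell in Treg PBS against CD4 PBS (Zfp592, Zfp281 and Zfp263), 2 in CD4 DTx against CD4 PBS (Zfp281 and Zfp592) and 1 in CD8 DTx against CD8 PBS (Zfp281), beside 6.91%, 4.08% and 3.47% of all genes called lower. That is 23.1%, 15.4% and 7.69% of the list, whose median log2 fold changes were -0.32, -0.56 and -0.23 beside 0.01, -0.04 and -0.03 for all genes, and with 13 members each share rests on 1 to 3 genes. None was called higher. Zfp592, a chromatin factor that acts with Zfp687, read 4604 and 6287 in CD4 PBS libraries, 3083 and 4479 in CD8 PBS, 1413, 1556 and 2166 in Treg PBS, 1902, 2195 and 2913 in CD4 DTx, 1268, 1340 and 3003 in CD8 DTx. Libraries of PBS-treated Tconv cells lay above all others. The log2 fold change was -1.68 in Treg PBS against CD4 PBS (SE 0.36, adjusted p = 0.0068), a call lost without CD4 PBS replicate 3 (adjusted p = 0.082). It was -1.23 in CD4 DTx against CD4 PBS (SE 0.36, adjusted p = 0.045), a call lost without any 1 of 8 libraries, Treg PBS replicates 1 and 2, CD4 PBS replicates 2 and 3, CD8 PBS replicates 2 and 3, CD4 DTx replicates 1 and 2 (adjusted p = 0.053 to 0.31).

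Zfp281 read 4044 and 7507 in CD4 PBS libraries, 2285 and 3926 in CD8 PBS, 1401, 1877 and 3429 in Treg PBS, 1353, 1714 and 1813 in CD4 DTx, 753, 997 and 1707 in CD8 DTx. Each PBS-treated Tconv group lay above its DTx counterpart without overlap, and in every group the library numbered 3 was the highest. It fell in Treg PBS against CD4 PBS (log2 fold change -1.40, SE 0.43, adjusted p = 0.038), in CD4 DTx against CD4 PBS (-1.77, SE 0.43, adjusted p = 0.018) and in CD8 DTx against CD8 PBS (-1.46, SE 0.43, adjusted p = 0.049). The first call was lost without any 1 of 4 libraries, Treg PBS replicates 1 and 2, CD4 PBS replicate 3, CD4 DTx replicate 2 (adjusted p = 0.051 to 0.29). The second was lost without CD4 PBS replicate 3 (adjusted p = 0.22), and the last was lost without any 1 of 9 libraries, Treg PBS replicate 2, CD4 PBS replicates 2 and 3, CD8 PBS replicates 2 and 3, CD4 DTx replicates 2 and 3, CD8 DTx replicates 1 and 2 (adjusted p = 0.051 to 0.41). Zfp263 read 2926 and 2571 in CD4 PBS and 1229, 986 and 1845 in Treg PBS (log2 fold change -1.07, SE 0.35, adjusted p = 0.049), a call lost without any 1 of 9 libraries, Treg PBS replicates 1 and 2, CD4 PBS replicates 2 and 3, CD8 PBS replicates 2 and 3, CD4 DTx replicate 2, CD8 DTx replicates 1 and 2 (adjusted p = 0.051 to 0.22). The remaining 10 members of the list, among them Zfp143, Zfp148, Zfp384 and Zfp410, the activator of Chd4 in the NuRD complex, were not called in the main comparisons. Of 13 NuRD genes 1 was called in these comparisons, Hdac2, which fell in CD8 DTx against CD8 PBS (log2 fold change -0.83, adjusted p = 0.027). Of all genes, 20.4%, 12.7% and 10.9% were called in the main comparisons.

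A list of KRAB type members and of members linked to silencing of imprints or retroelements held 10 members. Of these, 1 was called in Treg PBS against CD4 PBS and none in the other main comparisons, beside 20.4%, 12.7% and 10.9% of all genes. Zfp37 read 58.8 and 79.3 in CD4 PBS libraries, 76.5 and 64.0 in CD8 PBS, 0, 0 and 3.53 in Treg PBS, 0, 5.11 and 52.7 in CD4 DTx, 0, 0.963 and 36.3 in CD8 DTx. In both DTx groups the library numbered 3 alone came near the PBS level. The Treg libraries held 3 reads in sum against 163 in CD4 PBS, a ratio of 71.5 (95% Clopper-Pearson interval 24.0 to 350, counting error only). The call in Treg PBS against CD4 PBS (adjusted p = 0.047) was lost without any 1 of 8 libraries, Treg PBS replicates 1 and 2, CD4 PBS replicates 2 and 3, CD8 PBS replicates 2 and 3, CD4 DTx replicate 2, CD8 DTx replicate 2 (adjusted p = 0.056 to 0.20). Zfp809, which silences proviruses in embryonic cells, read 430 and 510 in CD4 PBS and 781, 473 and 462 in CD4 DTx (adjusted p = 0.65). Zfp445, an imprint regulator, read 1364 and 1354 in CD4 PBS and 1358, 1213 and 1094 in CD4 DTx (adjusted p = 0.76). Zfp568, Zfp932, Zfp708, Zfp429, Zfp947, Zfp62 and Zfp169 were not called in the main comparisons. No KRAB domain was found in Zfp62.

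Of 16 genes of the co-repressor machinery that KRAB members use, 2 rose (Uhrf1, log2 fold change 3.03, and Cbx5, 1.24) and 2 fell (Daxx, -1.07, and Fam208a, -0.81) in Treg PBS against CD4 PBS, 1 rose in CD4 DTx against CD4 PBS (Uhrf1, 2.18) and 2 in CD8 DTx against CD8 PBS (Uhrf1, 1.61, and Cbx5, 1.17). These are 25%, 6.25% and 12.5% of the list, beside 20.4%, 12.7% and 10.9% of all genes called. Uhrf1 carries DNA methylation through replication and its level is tied to the cell cycle. Trim28 read 2747 and 2933 in CD4 PBS and 1341, 1827 and 2233 in CD4 DTx (log2 fold change -0.69, adjusted p = 0.16).

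Zfp2, a protein of 13 C2H2 fingers without KRAB whose promoter opens the sequences above, was among the 3 members called lower in every main comparison. It read 131 and 124 in CD4 PBS libraries, 130 and 49.3 in CD8 PBS, 0, 2.17 and 0 in Treg PBS, 0, 0 and 0 in CD4 DTx, 0.924, 0.963 and 0 in CD8 DTx. Outside the Tconv libraries of PBS-treated mice no library held more than 3 reads. The 3 CD4 DTx libraries were at 0, at least 32.2-fold lower than CD4 PBS against a floor of 3 reads in a library. Over whole groups the ratio of CD4 PBS to Treg PBS was 186 (283 against 2 reads, 95% interval 51.0 to 1540) and that of CD8 PBS to CD8 DTx 131 (144 against 2 reads, 35.6 to 1090). The adjusted p was 0.00089 in Treg PBS against CD4 PBS and 0.00078 in CD4 DTx against CD4 PBS, both kept without each library in turn. It was 0.0045 in CD8 DTx against CD8 PBS, a call lost without CD8 PBS replicate 2 (adjusted p = 0.058).

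Zfp869, a KRAB member of 12 fingers, read 2262 and 2143 in CD4 PBS libraries, 1757 and 2143 in CD8 PBS, 1163, 1357 and 1395 in Treg PBS, 935, 1413 and 1337 in CD4 DTx, 714, 1037 and 987 in CD8 DTx. The 4 libraries of PBS-treated Tconv cells lay above the other 9. It fell in Treg PBS against CD4 PBS (log2 fold change -0.76, SE 0.24, adjusted p = 0.043), in CD4 DTx against CD4 PBS (-0.86, SE 0.24, adjusted p = 0.034) and in CD8 DTx against CD8 PBS (-1.11, SE 0.24, adjusted p = 0.012). The first call was lost without any 1 of 9 libraries, Treg PBS replicates 1, 2 and 3, CD4 PBS replicates 2 and 3, CD8 PBS replicates 2 and 3, CD4 DTx replicates 2 and 3 (adjusted p = 0.051 to 0.20). The second was lost without any 1 of 4 libraries, CD4 PBS replicates 2 and 3, CD4 DTx replicates 1 and 3 (adjusted p = 0.051 to 0.18), and the last was lost without CD8 PBS replicate 3 (adjusted p = 0.18).

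Zfp52, a KRAB member of 14 fingers, was high in Treg cells. It read 2428, 1581 and 2809 in Treg PBS libraries, 462 and 407 in CD4 PBS, 864 and 741 in CD8 PBS, 1071, 1000 and 1101 in CD4 DTx, 1169, 840 and 1538 in CD8 DTx. Treg libraries were the highest, CD4 PBS libraries the lowest and the CD4 DTx libraries between them without overlap. It rose in Treg PBS against CD4 PBS (log2 fold change 2.35, SE 0.29, adjusted p = 0.00019), a call kept without each library in turn. It also rose in CD4 DTx against CD4 PBS (1.28, SE 0.29, adjusted p = 0.012), a call lost without any 1 of 2 libraries, CD4 PBS replicates 2 and 3 (adjusted p = 0.058 to 0.11). In CD4 DTx it was lower than in Treg PBS (-1.06, SE 0.26, adjusted p = 0.027), a call lost without any 1 of 5 libraries, Treg PBS replicates 1 and 3, CD4 DTx replicates 1, 2 and 3 (adjusted p = 0.052 to 0.092).

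The other members called higher in Treg PBS against CD4 PBS were Zfp518b, Zfp820, Zfp296, Zfp934, Zfp808, Zfp382 and Zfp367. Zfp808, with 22 fingers, read 926, 729 and 894 in Treg PBS and 264 and 346 in CD4 PBS (log2 fold change 1.48, SE 0.30, adjusted p = 0.0050), a call lost without CD4 PBS replicate 2 (adjusted p = 0.064). Zfp518b read 130, 41.2 and 78.9 in Treg PBS and 0 in each of the CD4 PBS and CD8 PBS libraries, at least 20.3-fold and 20.8-fold higher against the floor of 3 reads. Its call against CD4 PBS was lost without any 1 of 3 libraries, Treg PBS replicate 1, CD4 PBS replicates 2 and 3 (adjusted p = 0.055 to 0.089), and that against CD8 PBS was lost without any 1 of 3 libraries, Treg PBS replicate 1, CD8 PBS replicates 2 and 3 (adjusted p = 0.057 to 0.11). Zfp820 read 59.3, 87.7 and 69.5 in Treg PBS libraries, 0 and 7.27 in CD4 PBS, 0 and 0 in CD8 PBS, 3.74, 2.04 and 6.58 in CD4 DTx, 0.924, 0.963 and 14.8 in CD8 DTx. Its call against CD4 PBS (log2 fold change 4.65, SE 1.24, adjusted p = 0.020) was lost without any 1 of 2 libraries, Treg PBS replicate 2, CD4 PBS replicate 2 (adjusted p = 0.057 to 0.21), and that against CD8 PBS was kept without each library in turn. Zfp518b and Zfp820 reached 50 reads in Treg cells only and entered the members through them, so their differences are given as a description.

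Against CD8 PBS, 23 members were called in Treg PBS, 13 higher and 10 lower (7.69%, beside 18.7% of all genes, 11.9% higher and 6.75% lower). Over 4-fold there were 12, beside 9.41%. Zfp518b, Zfp174 and Zfp820, all among the 13 called higher, reached 50 reads in Treg cells only. They entered the members through these cells, so the counts are given as a description. Of those 13, 5 lay on chromosome 17, which carries 36 of the 299 members: Zfp52, Zfp54, Zfp677, Zfp820 and Zfp995. Zfp318, on the same chromosome, was called lower. In Treg PBS against CD4 PBS, Zfp52 and Zfp820 were the members called higher there, and Zfp36l2 was called lower. A share over all genes of this chromosome was not computed. Zfp54 is the neighbour of Zfp677, and Zfp820 that of Zfp995. The 36 members of this chromosome had a median log2 fold change of 0.33 in that comparison, beside -0.13 for all members, and of 0.25 in Treg PBS against CD4 PBS, beside -0.25. Clustered KRAB genes are near copies of each other, and reads shared between copies would have been lost from counts of uniquely mapped reads, so their levels are less certain than those of single genes.

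The members called lower in Treg PBS against CD4 PBS and not yet described were Zfp180, Zfp653, Zfp59, Zfp7, Zfp60, Zfp747, Zfp397 and Zfp110. Zfp180 read 2115 and 2686 in CD4 PBS and 649, 461 and 946 in Treg PBS (log2 fold change -1.86, SE 0.43, adjusted p = 0.010), a call lost without CD4 PBS replicate 3 (adjusted p = 0.093). Zfp653 read 504 and 385 in CD4 PBS and 102, 114 and 173 in Treg PBS (log2 fold change -1.80, SE 0.51, adjusted p = 0.025), a call lost without any 1 of 4 libraries, Treg PBS replicates 1 and 2, CD4 PBS replicates 2 and 3 (adjusted p = 0.068 to 0.17). The other 6 had log2 fold changes between -1.35 and -0.68. Leaving out CD4 PBS replicate 2 or replicate 3 left 9 called members each, and leaving out Treg PBS replicate 1 or 2 left 12 and 13.

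Zfp422, a C2H2 member of 5 fingers, fell in CD4 cells after ablation. It read 1187, 1098 and 1021 in Treg PBS libraries, 940 and 1010 in CD4 PBS, 1317 and 1213 in CD8 PBS, 427, 446 and 298 in CD4 DTx, 770, 918 and 690 in CD8 DTx. The 3 CD4 DTx libraries were the lowest of all 13. Its log2 fold change was -1.34 in CD4 DTx against CD4 PBS (SE 0.24, adjusted p = 0.0030) and -1.52 in CD4 DTx against Treg PBS (SE 0.21, adjusted p = 0.0013), and both calls were kept without each library in turn. In CD8 DTx against CD8 PBS it was -0.68 (adjusted p = 0.090). Zfp286, Zfp81, Zfp773 and Zfp157 also fell in CD4 cells, by 3.71, 2.76, 2.45 and 1.24 on the log2 scale. The call of Zfp286 was lost without any 1 of 9 libraries, Treg PBS replicate 3, CD4 PBS replicates 2 and 3, CD8 PBS replicates 2 and 3, CD4 DTx replicates 2 and 3, CD8 DTx replicates 1 and 2 (adjusted p = 0.057 to 0.22). That of Zfp81 was lost without any 1 of 8 libraries, Treg PBS replicates 2 and 3, CD4 PBS replicates 2 and 3, CD8 PBS replicates 2 and 3, CD4 DTx replicate 2, CD8 DTx replicate 1 (adjusted p = 0.051 to 0.23). That of Zfp773 was lost without any 1 of 6 libraries, CD4 PBS replicates 2 and 3, CD8 PBS replicates 2 and 3, CD4 DTx replicates 1 and 2 (adjusted p = 0.053 to 0.24).

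Zfp296 read 90.6, 59.6 and 87.1 in Treg PBS libraries, 0 and 14.5 in CD4 PBS, 322 and 247 in CD8 PBS, 113, 95.1 and 52.7 in CD4 DTx, 49.0, 213 and 70.0 in CD8 DTx. CD4 PBS was the lowest group and CD8 PBS the highest. It rose in CD4 DTx against CD4 PBS (log2 fold change 4.41, SE 1.0, adjusted p = 0.012), a call lost without CD4 PBS replicate 2 (adjusted p = 0.13), and in Treg PBS against CD4 PBS (4.32, SE 1.0, adjusted p = 0.0095), a call lost without CD4 PBS replicate 2 (adjusted p = 0.11). The number of members called in CD4 DTx against CD4 PBS fell from 12 to 4 without CD4 PBS replicate 2, to 3 without CD4 PBS replicate 3, and to 7 without either CD8 PBS library.

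In CD8 cells after ablation 1 member was called higher, Zfp473 (ZFP100), which takes part in the processing of histone mRNA. It reached 50 reads in CD8 DTx only and entered the members through that group, so its difference is given as a description. It read 0 and 0 in CD8 PBS libraries, 65.6, 100 and 44.4 in CD8 DTx, 27.1, 34.7 and 37.7 in Treg PBS, 0, 26.6 and 0 in CD4 DTx, 8.20 and 29.7 in CD4 PBS. Its CD8 DTx libraries were at least 17.5-fold higher than CD8 PBS against the floor, and its call was lost without any 1 of 2 libraries, CD8 PBS replicates 2 and 3 (adjusted p = 0.064 to 0.12). Zfp202, Zfp94, Zfp593 and Zfp623 fell, by 2.17, 2.11, 1.61 and 1.52 on the log2 scale. Zfp623 read 499 and 543 in CD8 PBS and 108, 171 and 320 in CD8 DTx, and its call was lost without any 1 of 4 libraries, CD8 PBS replicates 2 and 3, CD8 DTx replicates 1 and 2 (adjusted p = 0.083 to 0.24). The call of Zfp202 was lost without any 1 of 10 libraries, Treg PBS replicates 2 and 3, CD4 PBS replicates 2 and 3, CD8 PBS replicates 2 and 3, CD4 DTx replicates 2 and 3, CD8 DTx replicates 1 and 2 (adjusted p = 0.052 to 0.26). That of Zfp94 was lost without any 1 of 3 libraries, CD8 PBS replicates 2 and 3, CD8 DTx replicate 2 (adjusted p = 0.10 to 0.21), and that of Zfp593 was lost without any 1 of 11 libraries, Treg PBS replicates 1, 2 and 3, CD4 PBS replicates 2 and 3, CD8 PBS replicates 2 and 3, CD4 DTx replicates 2 and 3, CD8 DTx replicates 1 and 2 (adjusted p = 0.051 to 0.32). The count of 8 rested on single libraries: it was 2 without CD8 PBS replicate 2, 1 without CD8 PBS replicate 3, 4 and 3 without CD8 DTx replicates 1 and 2, and 27, which included the 8, without CD8 DTx replicate 3. It was 5 without Treg PBS replicate 2, without either CD4 PBS library, or without CD4 DTx replicate 2 or 3.

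Against Treg cells, 7 members were called in CD4 DTx, 2 higher and 5 lower (2.34%, beside 7.91% of all genes, 3.36% higher and 4.55% lower), and 10 in CD8 DTx, 2 higher and 8 lower (3.34%, beside 8.6%, 3.88% higher and 4.71% lower). Over 4-fold there were 2 and 5, beside 4.01% and 4.93%. The median log2 fold changes of the members were -0.04 and -0.15. Both comparisons share the Treg libraries. Zfp652 and Zfp683 were called higher in each, and Zfp36l1, Zfp52 and Zfp677 lower in each. The call of Zfp683 in CD4 DTx was lost without any 1 of 6 libraries, Treg PBS replicates 1, 2 and 3, CD4 DTx replicates 2 and 3, CD8 DTx replicate 2 (adjusted p = 0.050 to 0.13), and that in CD8 DTx was lost without any 1 of 3 libraries, Treg PBS replicate 2, CD8 DTx replicates 2 and 3 (adjusted p = 0.060 to 0.074). The call of Zfp52 in CD8 DTx was lost without any 1 of 10 libraries, Treg PBS replicates 1 and 3, CD4 PBS replicates 2 and 3, CD8 PBS replicates 2 and 3, CD4 DTx replicates 2 and 3, CD8 DTx replicates 1 and 2 (adjusted p = 0.059 to 0.16). Zfp677 read 1263, 1246 and 1335 in Treg PBS libraries, 406, 644 and 759 in CD4 DTx, 479, 681 and 657 in CD8 DTx. Its log2 fold changes were -1.13 (SE 0.26, adjusted p = 0.019) and -1.10 (SE 0.26, adjusted p = 0.020), the first call lost without any 1 of 3 libraries, Treg PBS replicates 1, 2 and 3 (adjusted p = 0.055 to 0.059), the second lost without any 1 of 4 libraries, Treg PBS replicates 1, 2 and 3, CD8 DTx replicate 1 (adjusted p = 0.055 to 0.068). In CD8 DTx, Zfp467 was lower than in Treg PBS by 2.20 on the log2 scale (SE 0.51, adjusted p = 0.018), a call lost without any 1 of 3 libraries, Treg PBS replicates 1 and 3, CD8 DTx replicate 3 (adjusted p = 0.056 to 0.065). Without Treg PBS replicate 1 the counts were 2 and 6, without replicate 2 they were 4 and 5, and the second was 4 without replicate 3.

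Between CD4 and CD8 cells few members were called. In CD4 PBS against CD8 PBS 1 member was called, Zfp296, which was lower in CD4 cells (log2 fold change -6.16, SE 1.09, adjusted p = 0.016), beside 1.08% of all genes, 0.245% higher and 0.837% lower (0.908% over 4-fold). The call was lost without any 1 of 3 libraries, CD4 PBS replicate 2, CD8 PBS replicates 2 and 3 (adjusted p = 0.076 to 0.14). In CD4 DTx against CD8 DTx 1 member was called, Zfp422 (log2 fold change -1.03, SE 0.21, adjusted p = 0.034), beside 1.64% of all genes, 0.75% higher and 0.892% lower (1% over 4-fold). That call was lost without any 1 of 9 libraries, Treg PBS replicate 2, CD4 PBS replicates 2 and 3, CD8 PBS replicates 2 and 3, CD4 DTx replicates 2 and 3, CD8 DTx replicates 1 and 2 (adjusted p = 0.055 to 0.13). Libraries of equal number deviated together in this comparison, a pairing read from these data. With the replicate number as a block, fitted over all 13 libraries, 4 members were called: Zfp422 and Zfp286 lower in CD4 DTx, and Zfp287 and Zfp623 higher. This block was chosen from the data and the library numbered 3 also differs in sex, so these calls are given as a description. Zfp287 read 1018, 958 and 1082 in CD4 DTx and 465, 369 and 656 in CD8 DTx (log2 fold change 1.08, SE 0.23, adjusted p = 0.031 by limma with the block). The median log2 fold change of members was 0.15 in PBS-treated and 0.12 in DTx-treated mice. A difference in the DTx effect between CD4 and CD8 cells was called for no member by limma, beside 0.0474% of all genes, with 4 members at an unadjusted p under 0.05. For it edgeR called none and DESeq2 called 1. Zfp473 (difference -8.55, SE 1.87, adjusted p = 0.25) and Zfp296 (6.04, SE 1.41, adjusted p = 0.26) came nearest.

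Of the 299 members, 250 were called in none of the 8 comparisons of groups. Zfp317, a KRAB member of 13 fingers, had the smallest range of the 124 members with a mean of at least 500, from 588 to 827 over the 13 libraries, which is 1.40-fold. Zfp330 (1.49-fold), Zfp511 (1.50-fold), Zfp830 (1.54-fold) and Zfp24 (1.58-fold) came next by this range, and by the mean SD within groups (log2) Zfp24 (0.11) lay below Zfp317 (0.14). At the other end stood Zfp488, which was chosen for its spread after the values were seen. It read 12272 and 5278 in CD4 PBS libraries, 5925 and 5813 in CD8 PBS, 113, 1379 and 1821 in Treg PBS, 137, 1471 and 6810 in CD4 DTx, 93.3, 53.0 and 6484 in CD8 DTx. In each DTx group the library numbered 3 was at the level of the PBS-treated Tconv cells and the libraries numbered 1 and 2 were lower. Zfp512b, chosen in the same way, had the same order in the DTx groups, with 123, 422 and 936 in CD4 DTx and 118, 90.5 and 1288 in CD8 DTx against 1157 to 2105 in the PBS-treated Tconv groups. Neither was called in a main comparison. In Treg PBS, CD4 DTx and CD8 DTx the library numbered 3 had the highest value for 49.5%, 38.8% and 46.5% of members, beside 40.1%, 31.3% and 38.7% of all genes tested.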

How the data were processed

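RNA of sorted T cells was sequenced as bulk libraries (n = 2 or 3 a group). The labels name a SmartSeq2 protocol and the methods a SMARTer kit, so the exact chemistry is uncertain. Per the labels and methods, the authors trimmed reads with cutadapt, aligned them with hisat2 to NCBIM37 (mm9), kept uniquely mapped reads and deposited normalized read counts per gene, named FPM and scaled to library size with intergenic read normalization, which the methods do not define further. The deposited values summed to 2.18e+07 to 2.75e+07 in a library, which a per-million unit would not give, and were taken as a signal, reads that the authors divided by 1 factor in each library. The counter, strand setting and gene filter are not given in the sources used here. The value of 1 read, read from the steps of low values, was 0.661 to 1.37, and 100% of values came out whole within 0.01 read. These recovered reads gave 15947556 to 34140486 per library and served edgeR and DESeq2 as alternatives. Intervals and floors of 3 reads cover counting error only.

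Values were tested as log2(value + 1) with limma 3.58.1 (trend, R 4.3.3), 1 mean per group over 13 libraries, on genes with at least 10 in at least 2 libraries. The procedure was run on counts simulated with the same dispersion for every gene and no replicate or sex effect. That run does not show how it performs on libraries that differ as these do. edgeR 4.0.16 and DESeq2 1.42.0 called 16 and 34 members in Treg PBS against CD4 PBS. The methods require biological replicates but the labels do not tie libraries to animals, so p-values measure the spread between these libraries. Members, lists and tests were chosen with earlier results of these data known. Members named were those of 4 role lists, the 6 higher and 6 lower called with the largest fold change and no overlap in each main comparison (3 and 3 in the others), those called in all 3, and 3 on each side of the threshold. Of the partner lists, the 3 largest called were named; Trim28 was added as the shared co-repressor. Of the comparisons with 3 pairs, CD4 DTx against CD8 DTx was taken to have libraries of equal number that deviated together in every pair (r = 0.36, 0.21 and 0.59), a pairing read from the data, not the labels. In CD4 DTx and CD8 DTx against Treg PBS every r was above 0 but the lowest were 0.037 and 0.0062, and no cutoff for r was set. Fingers and KRAB domains were read with hmmer 3.4 and patterns from the longest open reading frames of GENCODE M21 transcripts, and positions and promoters from RefSeq (GRCm38.p6), whose build differs from that of the files. Of 299 members, 298 matched a RefSeq symbol and 253 had a promoter window.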

Additional observations from a re-analysis of the deposited data

How the results depend on the processing

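Counts of called members depended on the settings. Of 69 named calls, 7 were kept in all 21 settings, 62 were lost in at least 1 and 0 reversed. Where groups did not overlap, as the naming rule mostly required, leaving out a library could not reverse a direction, so the lack of reversals is a description only. Among the 7 was Zfp820 in Treg PBS against CD8 PBS, which entered the members through Treg cells. The numbers in Treg PBS against CD4 PBS (24), CD4 DTx against CD4 PBS (12), CD8 DTx against CD8 PBS (8), CD4 DTx against Treg PBS (7), CD8 DTx against Treg PBS (10), CD4 PBS against CD8 PBS (1), CD4 DTx against CD8 DTx (1), Treg PBS against CD8 PBS (23) and the difference between lineages (0) moved as follows. With only the groups compared they were 3 and 2 in CD4 and CD8 cells after ablation, 3 and 6 for the comparisons with Treg PBS, and 0 for both comparisons of CD4 with CD8 cells. By edgeR they were 7 and 5 in CD4 and CD8 cells after ablation, 0 for CD4 PBS against CD8 PBS and 15 for Treg PBS against CD8 PBS. By DESeq2 they were 20 in CD4 cells after ablation, 12 and 19 for the comparisons with Treg PBS, 5 for CD4 DTx against CD8 DTx and 1 for the difference between lineages. With the replicate number as a block they were 37 in Treg PBS against CD4 PBS, 20 in CD4 DTx against CD4 PBS, 17 and 20 in CD4 and CD8 DTx against Treg PBS, and 4 in CD4 DTx against CD8 DTx, and no other count moved by over 1.5 times. A pairing by number was not established in any comparison: the labels do not tie a number to a day and libraries numbered 3 share sex. In CD4 DTx against CD8 DTx it was read from these data only. Pairs of equal number had r = 0.099 and 0.10, -0.21 and -0.31, 0.084 and -0.0061 in the first 3. Against Treg PBS r was 0.25, 0.037 and 0.21 in CD4 DTx and 0.24, 0.0062 and 0.30 in CD8 DTx, and no cutoff was set. In CD4 PBS against CD8 PBS r was 0.19 in both pairs, which is 1 value: deviations from a mean of 2 libraries mirror each other. In libraries numbered 1 and 2 alone, a choice made after seeing the data that leaves CD4 PBS and CD8 PBS 1 library each, assumed to vary like the others, they were 7, 4, 2, 0, 3, 0, 0 and 4 for the first 8. With a change over 4-fold required they were 8, 6, 4, 2, 5, 0 and 12 for all but CD4 PBS against CD8 PBS. Leaving out 1 library in turn gave 9 to 33, 3 to 13, 1 to 27, 2 to 9, 4 to 11, 0 to 1, 0 to 3, 3 to 30 and 0 to 1. In Treg PBS against CD8 PBS 12 and 10 were left without Treg PBS replicates 1 and 2, and 9 and 3 without CD8 PBS replicates 2 and 3. The comparisons with Treg PBS also fell to 4 without CD4 DTx replicate 3, and to 6 and 4 without CD8 DTx replicates 1 and 2. CD4 DTx against CD8 DTx rose to 2 without CD4 DTx replicate 1 and to 3 without CD8 DTx replicate 3. The cause was not tested, beyond the fewer libraries in some settings. Groups of 2 and 3 libraries and members near the floor of 3 reads limit what can be seen.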
